A study of Mus musculus with 12 samples.

Results

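The red cell miRNAs miR-451a (mmu-mir-451a in the deposited table), miR-144-3p (mmu-mir-144-3p), miR-144-5p (mmu-mir-144-5p) and miR-486-5p (mmu-mir-486-5p) were followed across mouse skin and skin tumours. They were taken by name, as every row of the table for miR-451a, for either arm of miR-144 and for the 5p arm of miR-486, and they make 4 of its 1251 rows. The table holds 12 small RNA libraries from C57Bl6 mice that were wild type (WT) or TAp63-/-, which lack the p63 isoform with the N-terminal transactivation domain (called knockout here). The skin libraries are of untreated dorsal skin at an age of 4 weeks (WT n = 3, knockout n = 3). The tumours are cutaneous squamous cell carcinomas (SCC) of animals beyond 35 weeks of age that had received ultraviolet radiation at 2.5 kJ/m2, 3 times weekly (WT n = 2, knockout n = 4). Tissue, age and radiation therefore change together between skin and SCC, and cannot be told apart. Nothing in the labels says that each library came from a separate mouse, so the p-values measure only the spread between these libraries, which may be technical. The loss of TAp63 cannot be checked in a table of miRNAs.

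miR-451a and miR-144 are made from a single primary transcript that the erythroid transcription factor GATA1 switches on as red cells mature, and miR-451a is among the most abundant miRNAs of mature red cells. The miR-451a precursor is too short for Dicer and is cut by the slicer activity of Ago2, whereas miR-144 is processed by Dicer in the usual way. miR-486 lies within Ank1, the gene of erythrocyte ankyrin, and is abundant in red cells and also in striated muscle. Skin contains blood vessels and a thin layer of striated muscle, so a whole-tissue library can hold RNA of all these cells.

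The mature sequences are shown with the seed, bases 2 to 8, in capitals, because the seed sets which messages a miRNA can pair with and lets the members be compared with other miRNAs. Of the 4 members, 3 matched a mature sequence of RefSeq (GRCm38.p6, the mm10 build), and miR-486-5p is named only.
miR-451a: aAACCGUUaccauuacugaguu
miR-144-3p: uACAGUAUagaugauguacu
miR-144-5p: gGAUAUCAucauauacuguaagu
The 3 seeds differ from each other, and no other of the 1679 mature mouse miRNAs in the RefSeq table has any of them. Both hairpins are shown with the mature miRNAs in capitals, because the position of the mature strand differs between them.
Mir144 hairpin: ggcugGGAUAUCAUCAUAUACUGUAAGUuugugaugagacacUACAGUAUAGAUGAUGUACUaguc
Mir451a hairpin: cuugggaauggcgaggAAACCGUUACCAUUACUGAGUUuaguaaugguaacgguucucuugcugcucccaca
In the 66-base Mir144 hairpin, the 5p strand takes bases 6 to 28 and the 3p strand bases 43 to 62, on either side of the loop. In the 72-base Mir451a hairpin, the only mature strand takes bases 17 to 38 and runs from the 5′ arm into the loop.

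The Mir144 hairpin lies on chromosome 11 at 78073005 to 78073070, and the Mir451a hairpin at 78073170 to 78073241 on the same strand, with 99 bases between them (mm10, GENCODE M21). No annotated host gene covers them. Eral1, a protein-coding gene on the opposite strand, ends 134 bases beyond Mir451a, at 78073376. Mir451b is annotated on the opposite strand at exactly the position of Mir451a, and miR-451b was at the floor of the table in all 12 libraries. Mir486 is at 23142555 to 23142682 of chromosome 8, inside Ank1 (22974844 to 23150497, same strand), and touches 0 of its 527 annotated exon records, so it is intronic there. Mir3107, listed by RefSeq with the synonym mir-486b, lies within Mir486 on the opposite strand, at 23142573 to 23142662. miR-3107-5p had the same value as miR-486-5p in each of the 12 libraries, so the table does not tell the pair apart, and they are described as miR-486-5p.

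All levels are the authors' log2 values. They have nearly the same distribution in each library, as quantile normalization gives, though no label states that step. The distributions differ near a floor at the log2 of 10, below which no value lies. Read depth is not kept by such values and is unknown. The number of miRNAs above the floor was 390 to 433 in WT skin, 370 to 465 in knockout skin, 402 to 420 in WT SCC and 432 to 545 in knockout SCC. Of the 1251 rows, 544 were above the floor in at least 2 libraries and were tested, and all 4 members were above it in all 12. Of the 4 keratinocyte markers, miR-205-5p and miR-203-3p were high in every library, at log2 levels of 16.29 to 18.75. The other markers varied more among the tumours. miR-200b-3p was at 13.13 to 14.12 in skin and 11.07 to 14.41 in SCC. miR-200c-3p was at 11.23 to 11.89 in skin and 8.99 to 12.63 in SCC. Both were lowest in knockout SCC replicate 2.

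The first comparison was SCC against skin. miR-451a and miR-144-3p rose in SCC, averaged over the genotypes, by 6.12-fold and 4.41-fold. miR-144-5p from the same hairpin changed by 2.06-fold, which did not pass the test, and miR-486-5p was level or lower in the tumours. In whole-tissue RNA, a change in the number of cells of a type and a change in RNA per cell cannot be told apart. Of the 4 members, 2 were called higher and 0 lower at an adjusted p under 0.05, where 20.4% of all tested miRNAs were called higher and 21.5% lower. With 4 members this count is a description and shows nothing particular to them.

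miR-451a, which restrains the 14-3-3 zeta signalling protein during red cell maturation, stood at 10.24, 10.79 and 10.48 (log2 level) in the WT skin libraries and at 10.22, 9.87 and 11.23 in knockout skin. In SCC it stood at 13.63 and 12.31 in WT mice and at 14.57, 13.27, 11.57 and 13.38 in knockout mice. All 6 tumours lay above all 6 skin libraries, with the lowest tumour (knockout SCC replicate 3) 0.34 above the highest skin library (knockout skin replicate 3). The averaged difference was 2.61 ± 0.47 (log2, SE; adjusted p = 0.00126). As a share of the summed linear values of a library, miR-451a took 0.0242% ± 0.00459 (SD, n = 3) in WT skin and 0.0249% ± 0.0129 (SD, n = 3) in knockout skin. The corresponding shares in SCC were 0.147% ± 0.0887 (SD, n = 2) in WT and 0.197% ± 0.147 (SD, n = 4) in knockout mice. By rank from the top, miR-451a moved from places 97 to 142 in skin to places 37 to 88 in SCC.

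miR-144-3p, the partner of miR-451a in the same transcript, stood at 8.23, 8.80 and 8.47 (log2 level) in WT skin and at 7.84, 8.03 and 9.04 in knockout skin. Its SCC levels were 10.71 and 9.92 in WT mice and 12.15, 10.84, 9.56 and 10.51 in knockout mice. Again all 6 tumours lay above all 6 skin libraries, and the averaged difference was 2.14 ± 0.41 (log2, SE; adjusted p = 0.00178). The highest and lowest tumours, knockout SCC replicates 1 and 3, were those of miR-451a too. Full separation of the tissues was not particular to these members. All 6 tumours also lay above all skin libraries for miR-205-5p, miR-223-3p and miR-92a-3p, among others. They lay below all skin libraries for miR-1a-3p, miR-206-3p and miR-185-5p, among others. The share of all tested miRNAs with such a separation was not counted.

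miR-144-5p, the strand paired with miR-144-3p in the hairpin, stood at 7.20, 7.997 and 8.42 (log2 level) in WT skin and at 7.69, 6.95 and 7.83 in knockout skin. It stood at 8.50 and 8.38 in WT SCC and at 10.24, 9.26, 7.38 and 9.16 in knockout SCC. The tissues overlapped: 4 of 6 tumours lay above all skin libraries, and knockout SCC replicate 3 lay among the skin libraries. The averaged difference of 1.04 ± 0.44 (log2, SE; 95% interval 0.07 to 2.02) was not called at an adjusted p of 0.0842. Without knockout SCC replicate 3 it was 1.32 and was called (adjusted p = 0.00625), and with library quality weights it was 1.23 and was called (adjusted p = 0.0386).

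miR-486-5p, which is abundant in red cells and muscle, stood at 15.47, 15.69 and 15.10 (log2 level) in WT skin and at 15.03, 15.26 and 16.13 in knockout skin. It stood at 15.47 and 14.22 in WT SCC and at 16.06, 14.48, 13.69 and 14.43 in knockout SCC. The tissues overlapped, with 4 of 6 tumours below all skin libraries and the other two inside the skin range. The averaged difference was -0.69 ± 0.40 (log2, SE; 95% interval -1.57 to 0.18) and was not called (adjusted p = 0.193). Without knockout SCC replicate 1, the highest tumour, it was -0.93 and was called lower (adjusted p = 0.0324). Without WT SCC replicate 2 it was -0.38 (adjusted p = 0.558).

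**Figure D1:**
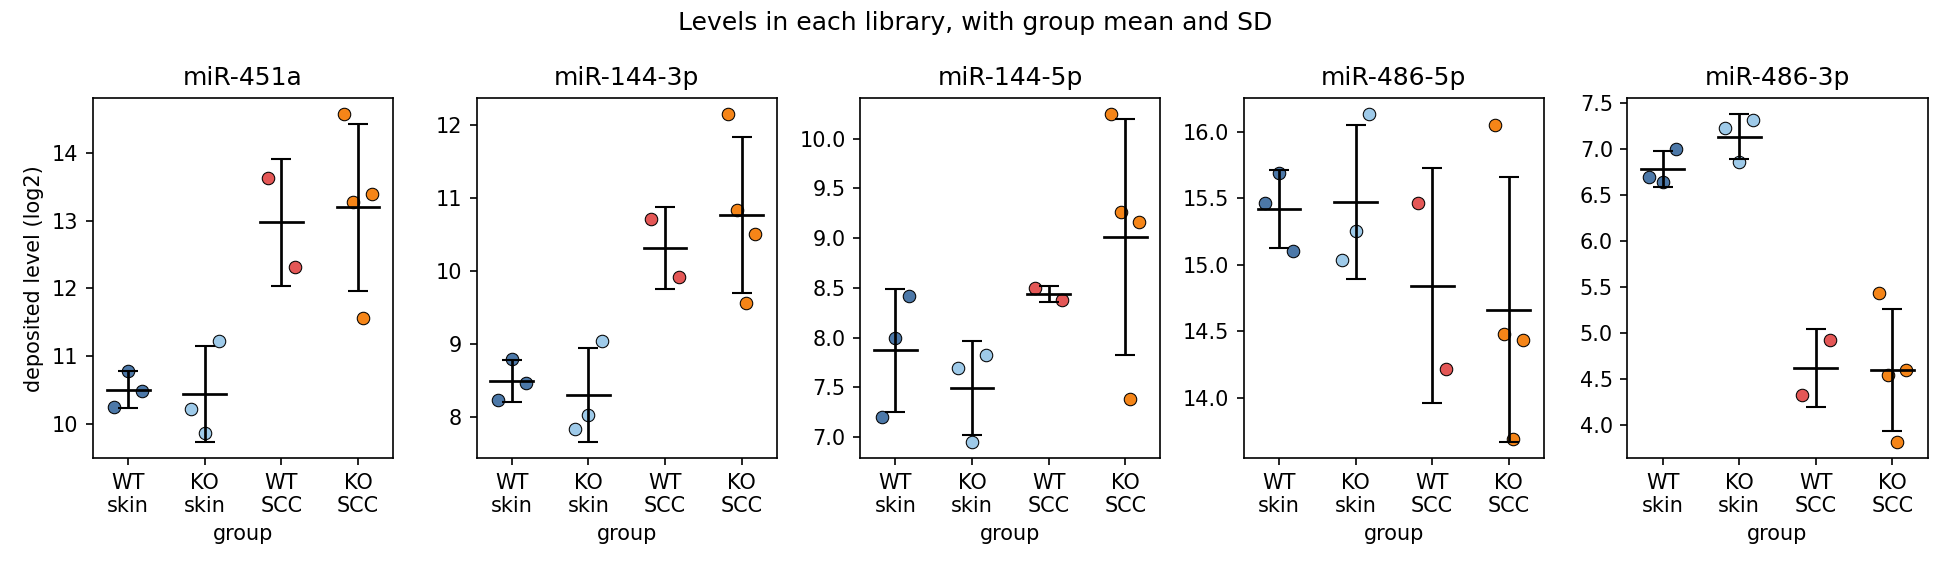
Deposited log2 levels (vertical axes, each with its own range) of the 4 members and of miR-486-3p in 4 groups: WT and TAp63 knockout (KO) skin and SCC. Points are libraries, bars are the group mean and SD; miR-451a and miR-144-3p are higher in all 6 tumours than in all 6 skin libraries, miR-486-5p overlaps between the tissues, and miR-486-3p is lower in all 6 tumours.

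The tumour effect was then taken in each genotype. In WT mice, 1 of the 4 members was called, miR-451a, where 8.82% of all tested miRNAs were called higher. Its difference there was 2.47 ± 0.73 (log2, SE; adjusted p = 0.0374), a 5.53-fold rise. This call rested on few libraries: without WT SCC replicate 1 the difference was 1.81 (adjusted p = 0.314). It also ended without any 1 of the WT skin replicates (adjusted p 0.0732 to 0.0989), without knockout SCC replicate 4 (0.0506) or replicate 1 of knockout skin (0.0501), with only the WT groups fitted (0.0711) and when miRNAs above the floor in a single library were kept (0.0549). miR-144-3p was 1.82 ± 0.63 higher in WT SCC, and was not called (adjusted p = 0.0708). It was called without knockout SCC replicate 1 (0.0253) or replicate 3 (0.0347), which enter only through the shared estimate of the spread. The WT differences of miR-144-5p (0.57 ± 0.68, adjusted p = 0.641) and miR-486-5p (-0.58 ± 0.61, adjusted p = 0.581) were not called. For miR-486-5p, leaving out WT SCC replicate 2 gave 0.047 and leaving out WT SCC replicate 1 gave -1.20.

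In knockout mice, miR-451a rose in SCC by 2.76 ± 0.61 (log2, SE; 6.76-fold, adjusted p = 0.00490) and miR-144-3p by 2.46 ± 0.53 (5.51-fold, adjusted p = 0.00457). These were 2 of the 4 members, where 16.0% of all tested miRNAs were called higher. Both kept their direction and their call in each of 22 alternative fits, with adjusted p-values up to 0.0256. miR-144-5p was 1.52 ± 0.57 higher (adjusted p = 0.0585). It was called without knockout SCC replicate 3 (2.06, adjusted p = 0.00365), with library quality weights (0.0254), with a filter of 6 libraries above the floor (0.0448) and with median-ratio scaling (0.0460). miR-486-5p was at -0.81 ± 0.51 (adjusted p = 0.251), and at -1.27 (adjusted p = 0.0343) without knockout SCC replicate 1.

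**Figure D2:**
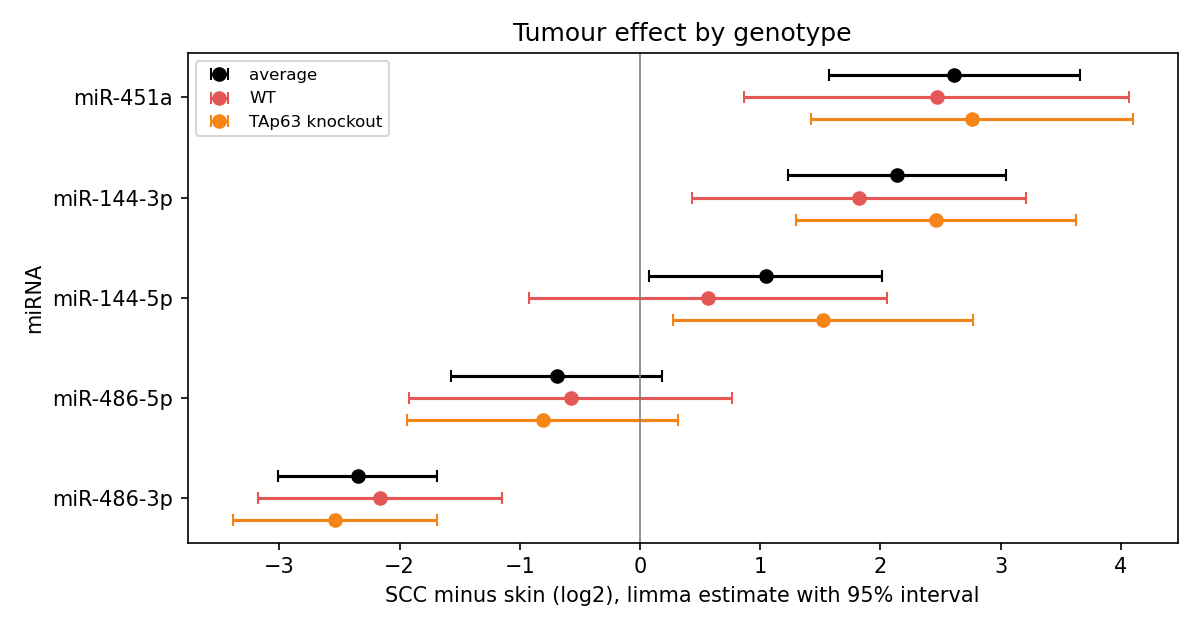
SCC minus skin in log2 units (horizontal axis) for the 4 members and miR-486-3p, averaged over the genotypes and in WT and TAp63 knockout mice, as limma estimates with 95% intervals. The averaged estimates run from 2.61 for miR-451a to -2.35 for miR-486-3p, and the intervals of the genotypes overlap for each miRNA.

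Knockout was next compared with WT within each tissue, and none of the members differed by the test. In skin, the knockout minus WT difference was -0.06 for miR-451a (log2; 95% interval -1.50 to 1.37), -0.19 for miR-144-3p (-1.43 to 1.05), -0.38 for miR-144-5p (-1.71 to 0.95) and 0.05 for miR-486-5p (-1.15 to 1.26). Of all 544 tested miRNAs, limma called 0 in this comparison (0%), with 31 at an unadjusted p under 0.05, none of them a member. In SCC, the difference was 0.22 for miR-451a (-1.29 to 1.74), 0.45 for miR-144-3p (-0.87 to 1.77), 0.57 for miR-144-5p (-0.84 to 1.99) and -0.18 for miR-486-5p (-1.45 to 1.10). There, 1 of 544 miRNAs was called (0.184%), and 46 had an unadjusted p under 0.05, again with no member among them. These intervals are wide: for miR-451a in SCC they hold a change of 2-fold in either direction.

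The interaction, the amount by which the SCC minus skin difference in knockout mice exceeded that in WT mice, was called for 0 of 544 miRNAs by limma (0%), and 41 had an unadjusted p under 0.05, none a member. It was 0.29 for miR-451a (log2; 95% interval -1.80 to 2.38), 0.64 for miR-144-3p (-1.17 to 2.45), 0.96 for miR-144-5p (-0.99 to 2.90) and -0.23 for miR-486-5p (-1.99 to 1.52). A rise of miR-144-3p that passed the test in knockout and not in WT mice is therefore not shown to differ between the genotypes.

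Differences between members inside a library were compared next, since a factor common to the members of a library cancels in plain log2 values. After quantile normalization such a factor need not cancel exactly between miRNAs at different ranks or near the floor. Levels of different miRNAs are not on a common molar scale, so only the change of a difference between tissues is read. Each averaged change equals the averaged change of the first miRNA minus that of the second. It is therefore no separate support for a change of either miRNA. Each change was tested with an exact two-sided permutation test of the tissue labels within genotype, over 350 arrangements, with adjustment over 4 differences. The last of the 4, between the arms of miR-486, was chosen after its values were seen.

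miR-486-5p exceeded miR-451a by 4.62 to 5.39 (log2 difference) in skin and by 1.05 to 2.12 in SCC, so the tissues did not overlap. The excess was 4.92 ± 0.30 (SD, n = 3) in WT skin and 5.03 ± 0.31 (SD, n = 3) in knockout skin, against 1.87 ± 0.05 (SD, n = 2) and 1.47 ± 0.47 (SD, n = 4) in the tumours. The averaged change was -3.31 (exact permutation p = 0.00286, the smallest the design allows; adjusted p = 0.00381). Within a tissue the difference spanned less than the level of either miRNA did.

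miR-144-5p lay 0.05 to 1.22 below miR-144-3p (log2 difference) in skin and 1.35 to 2.22 below it in SCC, again without overlap. The averaged change between the arms of this hairpin was -1.10 (exact permutation p = 0.00286; adjusted p = 0.00381), in the same direction in WT (-1.25) and knockout mice (-0.94). The arms of miR-144 thus changed unequally between skin and SCC. The partners miR-144-3p and miR-451a changed more nearly together: their difference (log2) was -2.38 to -1.84 in skin and -2.92 to -2.004 in SCC, with 5 of 6 tumours below all skin libraries. That averaged change was -0.47 (exact permutation p = 0.0143; adjusted p = 0.0143), and it lost its call (adjusted p 0.0524 to 0.0867) when any WT skin replicate or knockout skin replicate 2 was left out.

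**Figure D3:**
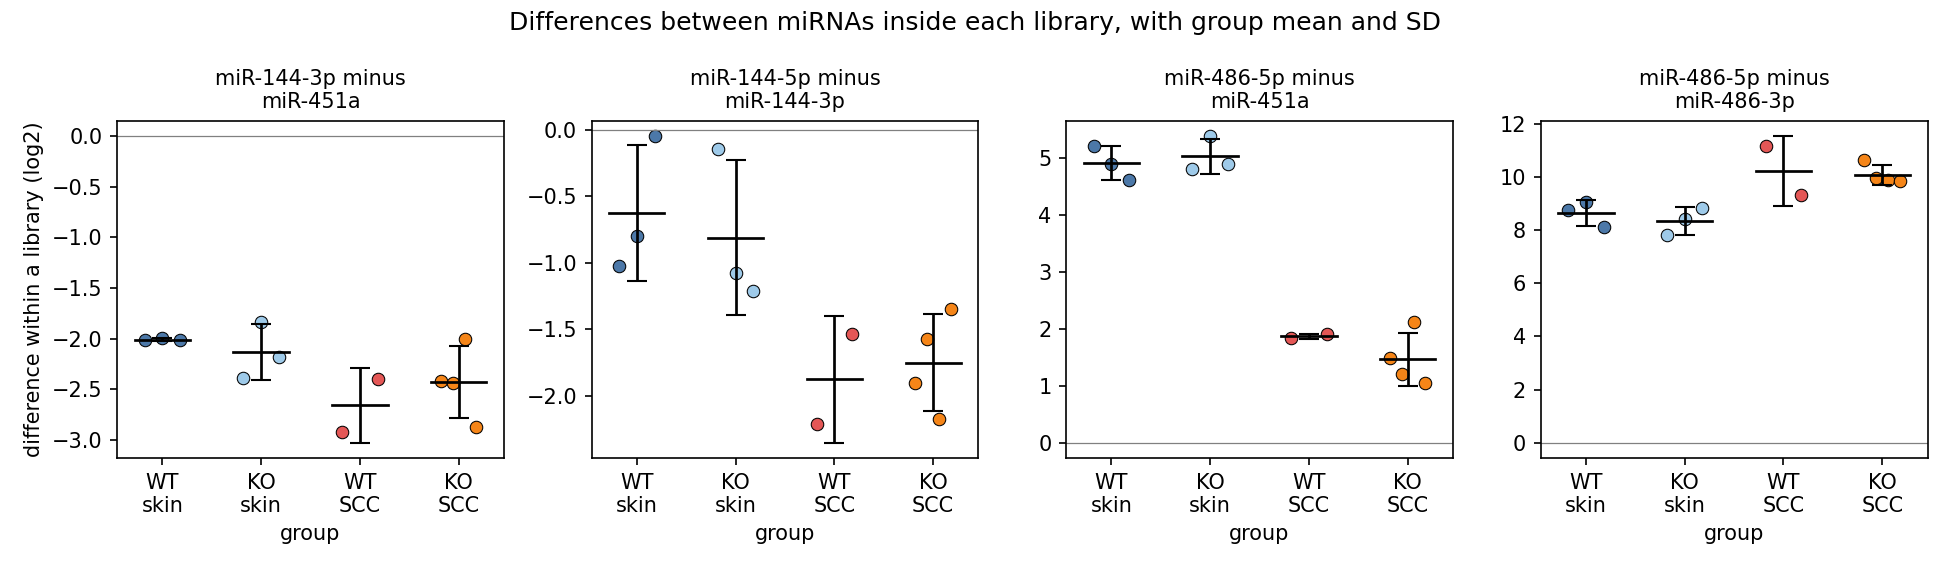
Log2 difference between pairs of miRNAs inside each library (vertical axes) in WT and TAp63 knockout (KO) skin and SCC, with group mean and SD. The difference of miR-486-5p and miR-451a is 4.62 to 5.39 in skin and 1.05 to 2.12 in SCC, and the difference of the miR-144 arms also separates the tissues.

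The 3p arm of miR-486, a fixed red cell marker here but no member, behaved unlike the 5p arm. Its log2 level was 6.70, 6.64 and 7.004 in WT skin and 7.23, 6.86 and 7.31 in knockout skin. In SCC it was 4.32 and 4.92 in WT mice and 5.43, 4.54, 3.81 and 4.60 in knockout mice, below all 6 skin libraries in all 6 tumours. It fell by 2.35 ± 0.30 (log2, SE; 5.10-fold lower, adjusted p = 0.000122), and these low levels lie near the floor of 3.32, which limits a fall. The near-identical miR-3107-3p, whose reads can be shared with it, was 5.91-fold lower (adjusted p = 4.69e-05). The excess of the 5p over the 3p arm of miR-486 was 7.80 to 9.05 (log2 difference) in skin and 9.30 to 11.15 in SCC. Its averaged change was 1.66 (exact permutation p = 0.00286; adjusted p = 0.00381).

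Each member was also ranked within its own library. Since the libraries have nearly the same distribution of values, a log2 level largely follows from the place from the top. The percentiles therefore restate the levels, apart from the number of miRNAs above the floor, and are no separate support. Among miRNAs above the floor, miR-451a was at the 65.1st to 78.1st percentile in skin and at the 82.6th to 91.7th in SCC. miR-144-3p moved from percentiles 41.9 to 62.0 in skin to percentiles 66.9 to 82.4 in SCC. For both, the exact permutation p was 0.00286 and the adjusted p over the 4 members 0.00571. The percentiles of miR-144-5p were higher in all 6 tumours (53.7 to 70.4) than in all 6 skin libraries (37.7 to 52.9). The exact permutation p was 0.0143 and the adjusted p 0.0190. By place from the top miR-144-5p overlapped between the tissues, at 191 to 255 in skin and 129 to 237 in SCC, as its log2 levels did. The number of miRNAs above the floor enters the percentiles, and their separation of the tissues rests on it. Ranked among the 544 tested miRNAs, the change of miR-144-5p was 7.61 points in place of 12.97 (adjusted p = 0.0571 by the same exact test). Without WT SCC replicate 1 or without WT SCC replicate 2 it also missed the threshold, at 13.11 and 12.84 points (exact permutation, adjusted p = 0.0571 in both). miR-486-5p was at percentiles 91.9 to 96.1 in skin and 90.0 to 95.8 in SCC (exact permutation p = 0.186).

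Taken over both genotypes, the tumours spanned a wider range than the skin libraries, a difference that was not tested. From the lowest to the highest library, miR-451a spanned 2.56-fold in skin and 7.995-fold in SCC, miR-144-3p 2.30-fold and 6.01-fold, miR-144-5p 2.76-fold and 7.26-fold, and miR-486-5p 2.14-fold and 5.17-fold. Knockout SCC replicate 1 was the highest tumour and knockout SCC replicate 3 the lowest for all 4 members. The SCC spans are therefore those of knockout SCC (n = 4). In the same order of members, WT SCC (n = 2) spanned only 2.50-fold, 1.73-fold, 1.09-fold and 2.38-fold. Knockout skin (n = 3) spanned 2.56-fold, 2.30-fold, 1.83-fold and 2.14-fold. The number of miRNAs above the floor ran the other way in the knockout tumours, at 432 in replicate 1 and 545 in replicate 3, with 489 and 476 in replicates 2 and 4. Its part in the spread of the members was not tested.

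Inside each tissue, miR-144-3p was high in the libraries in which miR-451a was high, and in the tumours so was miR-486-5p. Across the 6 tumours, miR-451a correlated with miR-144-3p at r = 0.95 (exact permutation p = 0.00556, adjusted p = 0.0296 over 8 relations; Spearman's rho = 0.83, exact permutation p = 0.0583, adjusted p = 0.156). It correlated with miR-486-5p at r = 0.92 (exact permutation p = 0.0111, adjusted p = 0.0296; rho = 0.94, exact permutation p = 0.0167, adjusted p = 0.0667). Without the 2 tumours farthest from the median of miR-451a, which left 4, r was 0.90 and 0.71. With miR-144-5p, r was 0.91 across the tumours (exact permutation p = 0.0264, adjusted p = 0.0528; rho = 0.77, exact permutation p = 0.103, adjusted p = 0.181), but 0.44 without those 2, so that relation rests on them.

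Across the 6 skin libraries, miR-451a correlated with miR-144-3p at r = 0.92 (exact permutation p = 0.00972, adjusted p = 0.0296; rho = 0.94, exact permutation p = 0.0167, adjusted p = 0.0667), and at 0.93 without the 2 farthest libraries. For miR-486-5p in skin r was 0.81 (exact permutation p = 0.0431, adjusted p = 0.0685; rho = 0.71, exact permutation p = 0.136, adjusted p = 0.181), and 0.63 without the 2 farthest. For miR-144-5p it was 0.60 (exact permutation p = 0.211, adjusted p = 0.241; rho = 0.71, exact permutation p = 0.136, adjusted p = 0.181), and 0.58 without them. These relations were chosen after the values were seen, and each tissue holds both genotypes.

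**Figure D4:**
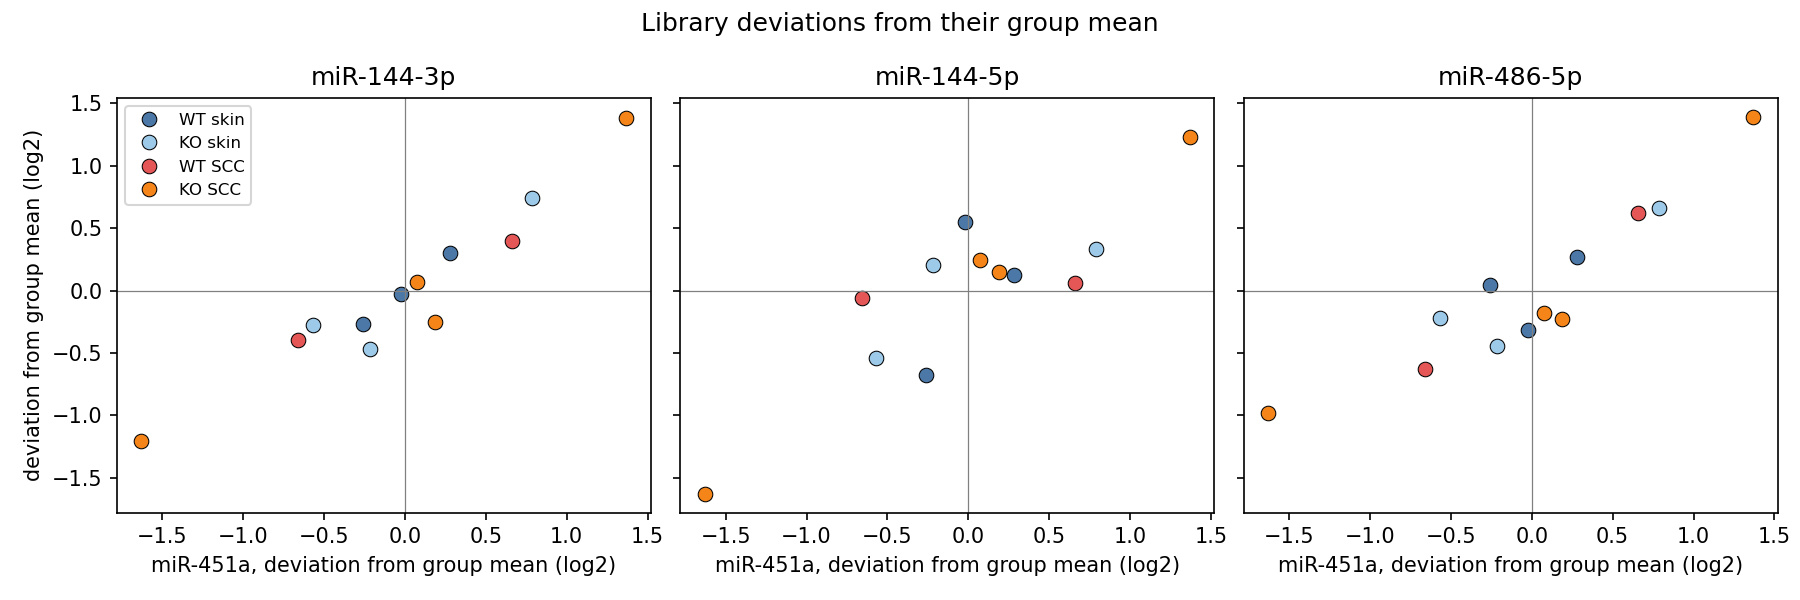
Deviation of each of the 12 libraries from its group mean (log2) for miR-451a (horizontal axis) against miR-144-3p, miR-144-5p and miR-486-5p (vertical axis). Colours give WT and TAp63 knockout (KO) skin and SCC; knockout SCC replicate 1 is at the upper right and knockout SCC replicate 3 at the lower left of each panel.

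The miRNAs most like miR-451a were sought among all 544 tested, as a description. Over the 12 log2 levels, miR-144-3p was first (r = 0.99), and the nearest miRNAs outside the members were miR-872-3p (0.91), miR-106b-3p (0.91), miR-142-3p (0.89), miR-19a-3p (0.89) and miR-331-3p (0.89). All of them share the shift between skin and SCC. miR-144-5p was in place 8 (0.87) and miR-486-5p in place 296 (-0.06). Over the deviations from the 4 group means, which remove that shift, miR-144-3p was again first (0.95), and miR-486-5p was next (0.92), with the same value for miR-3107-5p. miR-10a-5p (0.88), miR-144-5p (0.86), miR-29a-5p (0.83), miR-1306-5p (0.83) and miR-34a-5p (0.78) followed. miR-1306-5p was at the floor in both skin groups and in WT SCC, so its value rests on the 4 knockout tumours. miR-486-5p thus went with miR-451a in the deviations pooled over the groups, and not between skin and SCC. The largest deviations of miR-451a and miR-486-5p were in knockout SCC replicates 1 (1.37 and 1.39) and 3 (-1.63 and -0.98). Their signs were opposite in knockout SCC replicates 2 (0.07 and -0.18) and 4 (0.19 and -0.23) and in WT skin replicate 1 (-0.26 and 0.05).

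Markers of other cells moved between the tissues beside the members. Of 7 striated muscle markers, 2 (miR-208a-3p and miR-208b-3p, of heart and slow muscle) were at the floor in all libraries. Of the 5 tested, 4 fell and 0 rose in the averaged comparison, where 21.5% of all tested miRNAs were called lower, with log2 differences of -6.20 ± 0.43 (miR-206-3p), -4.43 ± 0.44 (miR-1a-3p), -2.61 ± 0.41 (miR-133a-3p) and -2.59 ± 0.32 (miR-133b-3p). These miRNAs drive and maintain the muscle programme. miR-499-5p, of heart and slow muscle, was at the floor in all 6 skin libraries and above it in 5 of 6 tumours. Its averaged difference was 1.20 ± 0.55 (adjusted p = 0.110), and it was called higher in knockout mice (1.99 ± 0.71, adjusted p = 0.04998), where 16.0% of all tested miRNAs were. Summed, the list took 1.21% to 1.31% of the linear values in WT skin, 1.10% to 1.49% in knockout skin, 0.0973% to 0.519% in WT SCC and 0.0783% to 0.265% in knockout SCC. Most of this sum was miR-133a-3p, at a mean log2 level of 16.09 in WT skin against 11.71 for miR-1a-3p, the next highest there. The part of the muscle list in the levels of miR-486-5p and miR-486-3p was not tested. The level of miR-486-5p went with the summed muscle list at r = 0.80 in skin (n = 6, exact permutation p = 0.0514, adjusted p = 0.0685; rho = 0.66, exact permutation p = 0.175, adjusted p = 0.200), but at -0.03 without the 2 farthest libraries. In SCC the relation was r = -0.35 (n = 6, exact permutation p = 0.496, adjusted p = 0.496; rho = -0.43, exact permutation p = 0.419, adjusted p = 0.419), and -0.41 without the 2 farthest.

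Of 7 leukocyte markers, miR-155-5p and miR-223-5p were at the floor in all libraries. Of the 5 tested, 2 rose, the pan-leukocyte miR-142-3p (1.19 ± 0.30, adjusted p = 0.00889) and the myeloid miR-223-3p (1.20 ± 0.33, adjusted p = 0.0125), and 0 fell, where 20.4% of all tested miRNAs were called higher. miR-142-5p was at 0.54 ± 0.34, the lymphocyte miR-150-5p at 0.09 ± 0.56 and miR-342-3p at -0.44 ± 0.36, none of them called. In WT mice 0 of the 5 were called higher by limma, with miR-142-3p at an adjusted p of 0.0859 (unadjusted 0.0194) and miR-223-3p at 0.238. The summed list took 0.342% to 0.463% in WT skin, 0.336% to 0.437% in knockout skin, 0.534% to 0.724% in WT SCC and 0.274% to 1.04% in knockout SCC. miR-142-5p, which was not called, made most of this sum. Its mean log2 level in WT skin was 14.12, against 10.71 for miR-342-3p, the next highest there. Of the 2 endothelial markers, miR-126-5p, from the vessel-restricted miR-126 hairpin, rose (0.50 ± 0.17, adjusted p = 0.0324) and miR-126-3p was at 0.27 ± 0.16 (adjusted p = 0.190). Their sum ran from 0.782% to 1.04% over the skin libraries and from 0.988% to 1.53% over the tumours. Of the 4 keratinocyte markers, miR-205-5p rose (1.55 ± 0.19), miR-203-3p fell (-0.60 ± 0.21) and 2 were not called. The part of leukocytes, vessels and keratinocytes in the rise of miR-451a and miR-144-3p was not tested.

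A list of 9 other miRNAs that are abundant in red cells, but also in many other cells, was read in the same way. In SCC, 5 rose, 1 fell and 3 were not called, with a median log2 difference of 0.89 against 0.04 for all 544 tested miRNAs, of which 20.4% were called higher and 21.5% lower. In WT mice 2 of the 9 were called higher, where 8.82% of all tested miRNAs were. In the averaged comparison miR-92a-3p (2.81 ± 0.30), miR-93-5p (1.22 ± 0.17), miR-25-3p (1.14 ± 0.18), miR-106b-5p (1.14 ± 0.23) and miR-15b-5p (0.89 ± 0.24) rose. The first 4 belong to the growth-linked miR-17-92 and miR-106b-25 clusters. miR-185-5p, which inhibits a scavenger receptor of lipid uptake, fell by 1.23 ± 0.24. miR-16-5p, which is abundant in red cells and widely expressed, was at 0.18 ± 0.15 (adjusted p = 0.383), miR-22-3p at 0.06 ± 0.20 and miR-363-3p at 0.01 ± 0.49.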

How the data were processed

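Small RNA libraries of 12 mouse skin and SCC samples were analysed from 1 deposited table of log2 values. The submitters' processing notes name the build mm10. Which aligner and counting tool were used was not given in the sources used here. The authors' log2 values show nearly the same distribution in each library, as quantile normalization gives, and a floor at the log2 of 10. No counts or depths can be read from them. The 4 members were matched by name. The 544 miRNAs that exceeded the floor in 2 or more libraries were fitted with limma 3.58.1 (R 4.3.3), with 1 mean per group and trended, robust variances (8 residual degrees of freedom), and p-values were adjusted by Benjamini-Hochberg over all 544 in each comparison. Fitting and permutation code was tested on simulated data. Permutation tests, within genotype, and correlations used scipy 1.17.1 and numpy 2.4.6. Sequences came from RefSeq (GRCm38.p6) and positions from GENCODE M21. The rule for named miRNAs covered the members, up to 4 called members of each fixed list, miRNAs sharing bases 2 to 7 of a seed, and the 5 most like miR-451a by each correlation. Other list members, called or not, and miR-101b-3p are named outside that rule, chosen after their values were seen. Listed miR-142a and miR-486b names were matched to the rows miR-142 and miR-3107. Members and lists were chosen with earlier results of these data known. Alternatives changed the filter, pseudocount, scaling, weights, variance model and groups fitted, and left out each library. Keeping 1 row of each of 23 sets of identical rows (51 rows) was added after seeing the data.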

Additional observations from a re-analysis of the deposited data

Results flagged for a closer look

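Among the knockout tumours, the log2 excess of miR-486-5p over miR-486-3p was 10.62 in replicate 1, against 9.84 to 9.94 in the other 3, a gap large enough for the Dixon test at the 95% level. This was 1 of 12 values tested in that group of 4, where chance marks about 1 in 20. No interaction of a member with genotype passed the test.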

How the results depend on the processing

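In the averaged comparison of SCC with skin, miR-451a (2.28 to 2.94) and miR-144-3p (1.91 to 2.34) kept their rise and their call in all 21 alternatives. miR-144-5p ranged from 0.84 to 1.32 with single libraries left out and was 1.23, and called, with quality weights. miR-486-5p ranged from -1.01 to -0.38 with single libraries left out. In WT mice, the number of members called was 1, against 0 to 2 with single libraries left out, 0 when miRNAs above the floor in a single library were kept and 0 with only the groups compared. miR-486-5p ranged there from -1.20 to 0.047. With single libraries left out, differences that were not called changed sign. Knockout minus WT in skin ran from -0.46 to 0.22 for miR-451a, -0.56 to 0.041 for miR-144-3p and -0.27 to 0.27 for miR-486-5p, which quality weights put at -0.031. In SCC the ranges were -0.44 to 0.88, -0.012 to 0.85 and -0.80 to 0.45. The interaction ran from -0.37 to 0.95 for miR-451a and -0.86 to 0.39 for miR-486-5p. The tissue change of miR-144-3p minus miR-451a ran from -0.60 to -0.34, and the rank change of miR-144-5p from 10.5 to 14.4 points, or 7.61 among all tested. The cause of these changes was not tested. Leaving out a WT SCC library leaves 1, assumed to vary like the other groups. No paired analysis was possible because the labels tie no skin library to a tumour library, and titles carry only running numbers. Read depth is unknown, which limits every value near the floor.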

Other observations

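miR-101a-3p is the only mature mouse miRNA of the RefSeq table outside the members that shares bases 2 to 7 with miR-144-3p, shown here in capitals.
miR-101a-3p: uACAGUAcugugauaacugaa
It went the other way from miR-144-3p. Its log2 level was 13.91 to 14.50 in skin and 13.15 to 13.69 in SCC, and it fell by 0.86 ± 0.18 in the averaged comparison (limma, SE; adjusted p = 0.00265), with all 6 tumours below all 6 skin libraries. Its relative miR-101b-3p, which does not share those bases in the RefSeq table, was at 12.11 to 12.45 in skin and 12.11 to 13.43 in SCC, a difference of 0.48 ± 0.22 that was not called (adjusted p = 0.111).

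A list of 7 miRNAs known to decline as red cells mature had 6 tested members, and miR-155-5p was at the floor in all libraries. In SCC, 1 of the 6 rose, the myeloid miR-223-3p, and 0 fell, with a median log2 difference of 0.50 against 0.04 for all tested miRNAs. With 20.4% of all tested miRNAs called higher, this count is near the background and is not a result about the list. The Kit-repressing miR-221-3p (0.66 ± 0.31, adjusted p = 0.119) and miR-222-3p (0.60 ± 0.31, adjusted p = 0.144) were not called, nor were miR-34a-5p (0.39 ± 0.23, adjusted p = 0.195), miR-150-5p (0.09 ± 0.56, adjusted p = 0.902) and miR-24-3p (-0.48 ± 0.24, adjusted p = 0.136). For miR-24-3p, 4 of 6 tumours lay below all skin libraries.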
